A study of Mus musculus with 5 samples.

Results

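The small leucine-rich proteoglycans are described here by 10 genes, Lum, Dcn, Bgn, Fmod, Ogn, Prelp, Aspn, Omd, Kera and Podn, chosen by name out of the 23857 genes of the expression table. All 10 were listed, and all 10 passed the filter on low values, Kera through the control libraries alone. RNA was sequenced from YFP-positive stromal cells that had been sorted from the oviducts of female mice described as young adults, 1 library per mouse. The 2 control mice, numbered 2 and 3, had the genotype Pdgfra-Cre;R26Y, a Cre driver with a YFP reporter, and are labelled wild-type. The 3 other mice, numbered 1, 2 and 3, had the same driver and reporter together with Esr1(fl/fl), floxed alleles of the gene for estrogen receptor alpha, and are called Esr1(fl/fl) mice below. Pdgfra-Cre is driven by the promoter of a mesenchymal receptor gene, so recombination and YFP mark cells that have used that promoter at some time, also if they no longer do. The comparison asks which genes differ when Esr1 is deleted in these stromal cells.

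Small leucine-rich proteoglycans are secreted proteins whose leucine-rich repeats form a curved solenoid that binds collagen fibrils and growth factors. Most carry chondroitin, dermatan or keratan sulfate chains, and by coating fibrils they set fibril diameter and spacing. Fibroblasts are their main source, and Dcn and Lum are among the usual marker transcripts of fibroblasts in reproductive tract stroma.

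Esr1 was at 83.3 and 77.6 TPM (a share of the library corrected for transcript length, scaled to a fixed total) in control mice 2 and 3 and at 28.9, 85.0 and 169.9 TPM in Esr1(fl/fl) mice 1, 2 and 3, so it did not separate the groups, and every direction below refers to the labels. Reads from exons outside the floxed part count toward this level too, so it does not measure deletion directly. Pdgfra overlapped between the groups, at 188 to 225 TPM in controls and 165 to 298 TPM in Esr1(fl/fl) mice. Values of low genes fell on steps that put the depth of the libraries at 47.9% to 81.8% of control mouse 2, lowest in Esr1(fl/fl) mouse 1. Of 19292 genes tested, 3 were lower and 2 higher in Esr1(fl/fl) mice at an adjusted p under 0.05 (limma on log2(TPM + 1), Benjamini-Hochberg adjustment), which is 0.0156% and 0.0104%. They were Ostn, Slitrk3 and Zfp804a, and Myoc and Moxd1, none of them a member. Without Esr1(fl/fl) mouse 1 the counts were 499 lower and 1024 higher, and calls that come with its removal among the genes described here are given below.

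The family split into genes that were lower and genes that were higher in Esr1(fl/fl) mice. Lum and Ogn lay below both controls in all 3 Esr1(fl/fl) libraries, and Prelp, Fmod, Podn and Omd lay above both. Kera was also below, but it was tested because the controls alone reached 1 TPM, so its direction follows in part from the filter and it is left out of the counts below. Dcn, Bgn and Aspn overlapped between the groups. Groups that do not overlap were found for 21.9% of all tested genes in the lower and 11.9% in the higher direction. None of the 10 members passed the adjusted threshold in limma. At an unadjusted p under 0.05, 2 members were lower (Lum, Ogn) and 3 higher (Prelp, Podn, Fmod), against 9.87% and 3.7% of all tested genes. The median log2 fold change of the 10 was -0.036, beside -0.022 over all tested genes, and 0.26 without Kera. In bulk RNA, fewer cells of a type and less RNA per cell cannot be told apart.

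With Esr1(fl/fl) mouse 1 left out, 4 members had an adjusted p under 0.05 in limma: Lum and Ogn lower, Prelp and Podn higher. In that fit 2.59% of all tested genes were called lower and 5.31% higher. All 10 members kept the sign of their fold change in that fit, and the largest shift was that of Fmod, from 1.38 to 0.78. No member passed when Esr1(fl/fl) mouse 2 or 3 was left out instead. With libraries weighted by their estimated quality, Lum passed in the lower direction, where 2.05% of all tested genes did, and Prelp and Podn in the higher, where 1.35% did.

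**Figure D1:**
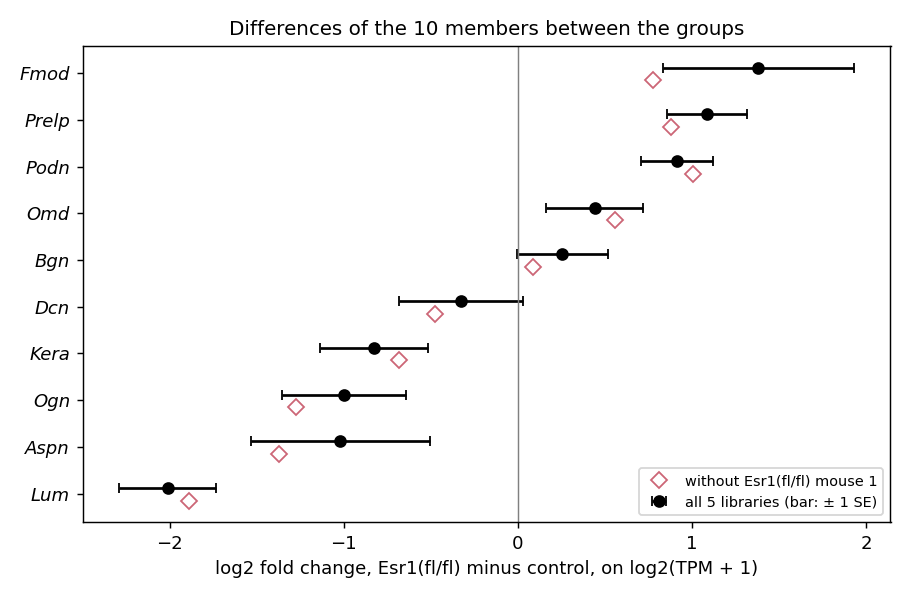
Log2 fold change of each member between Esr1(fl/fl) and control libraries on the log2(TPM + 1) scale, as black points with bars of 1 standard error for all 5 libraries and as open diamonds without Esr1(fl/fl) mouse 1. Lum lies farthest to the left at -2.01 and Fmod farthest to the right at 1.38, and each diamond lies on the same side of 0 as its point.

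Lum encodes lumican, a keratan sulfate proteoglycan that binds collagen fibrils and keeps their diameter even. Lum stood at 2383 and 1740.0 TPM in control mice 2 and 3, against 426, 448 and 671 TPM in Esr1(fl/fl) mice 1, 2 and 3. The controls were both far above all 3 other libraries, the lower control being 2.59 times the highest Esr1(fl/fl) value. Controls averaged 2061 ± 455 TPM (SD, n = 2) and Esr1(fl/fl) mice 515 ± 136 TPM (SD, n = 3), a 4.0-fold difference. In limma its log2 fold change was -2.01 (SE 0.28, adjusted p 0.0978), which did not pass. It was -1.89 without Esr1(fl/fl) mouse 1, with an adjusted p of 0.0205, and lay between -2.24 and -1.78 when each library was left out in turn. The adjusted p of Lum over the 14 alternatives ran from 0.0122 to 0.707, the highest when control mouse 2 was left out.

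Fmod encodes fibromodulin, which is closely related to lumican, binds an overlapping collagen site and also binds lysyl oxidase. Fmod stood at 28.2 and 25.5 TPM in control mice 2 and 3, against 166, 55.0 and 39.7 TPM in Esr1(fl/fl) mice 1, 2 and 3. All 3 lay above both controls, but mouse 1 was far above mice 2 and 3. In log2 units Fmod was 1.38 higher (SE 0.55, limma, unadjusted p 0.0401, adjusted p 0.351). Without mouse 1 it was 0.78 (adjusted p 0.0567). The ratio of Fmod to Lum within a library, which does not depend on how the library is scaled, was 0.0118 and 0.0146 in controls and 0.390, 0.123 and 0.0591 in Esr1(fl/fl) mice 1, 2 and 3. Since Fmod lay above and Lum below both controls in each of these mice, the ratio had to separate the groups.

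Prelp encodes a repeat protein of the same class with a basic end that binds heparan sulfate, linking basement membranes to collagen. Prelp stood at 81.8 and 85.0 TPM in control mice 2 and 3, against 238, 159.8 and 149 TPM in Esr1(fl/fl) mice 1, 2 and 3. The controls agreed closely and all 3 other libraries were higher, each at least 1.75 times the higher control. Its fold change on the log2 scale was 1.09 (SE 0.23, limma, unadjusted p 0.0023, adjusted p 0.187), and 0.88 without mouse 1 (adjusted p 0.0178). An annotated antisense transcript shares 350 exonic bases with Prelp, and whether reads were assigned by strand is not given in the sources used here.

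Kera encodes keratocan, a keratan sulfate proteoglycan best known from the cornea, and Omd encodes osteomodulin, known from bone. Kera was near the limit of detection, at 1.5 and 1.12 TPM in control mice 2 and 3, against 0.0646, 0.452 and 0.418 TPM in Esr1(fl/fl) mice 1, 2 and 3. These levels correspond to about 46.1 and 22.9 reads in the controls and to about 0.95, 11.4 and 8.70 reads in the others, from the step of low values and the annotated transcript length. For Kera the log2 difference of -0.83 (SE 0.31, adjusted p 0.341 in limma) understates a difference at such levels. It was -1.95 with a pseudocount of 0.1 and -0.30 after quantile normalization. Omd was at 19.5 and 15.6 TPM in control mice 2 and 3, against 20.4, 34.4 and 19.8 TPM in Esr1(fl/fl) mice 1, 2 and 3. Mice 1 and 3 were barely above control mouse 2, and the log2 difference of 0.44 (SE 0.28, adjusted p 0.496 in limma) was 0.19 without mouse 2 and 0.29 without control mouse 3.

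Dcn encodes decorin, which carries a chondroitin or dermatan sulfate chain, binds collagen and can bind TGF-beta and receptor tyrosine kinases. It was by far the most abundant member, at 10110.4 and 9066 TPM in control mice 2 and 3, against 9344, 6764 and 7024 TPM in Esr1(fl/fl) mice 1, 2 and 3. Mouse 1 lay between the controls and mice 2 and 3 below both. On the log2 scale it differed by -0.33 (SE 0.36, limma, adjusted p 0.673), less than the standard error.

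Bgn encodes biglycan, the nearest relative of decorin, whose free form is known as a ligand of Toll-like receptors. Bgn stood at 1620.5 and 1409 TPM in control mice 2 and 3, against 2283, 1701 and 1514 TPM in Esr1(fl/fl) mice 1, 2 and 3. Mouse 3 lay between the controls, and mouse 1 was the highest. Its log2 fold change of 0.26, about the size of its standard error, was 0.086 without mouse 1 (limma, adjusted p 0.653 and 0.773) and 0.16 without control mouse 3. Within a library, the ratio of Bgn to Dcn was 0.16 and 0.155 in the controls and 0.244, 0.251 and 0.215 in Esr1(fl/fl) mice 1, 2 and 3, without overlap.

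Aspn encodes asporin, a relative of decorin with a stretch of aspartate in place of a sugar chain. Aspn stood at 114 and 46.6 TPM in control mice 2 and 3, against 58.4, 38.9 and 19.6 TPM in Esr1(fl/fl) mice 1, 2 and 3. The gap between the controls exceeded the gap between control mouse 3 and any of the 3. Its log2 difference of -1.02 (SE 0.51, adjusted p 0.422 in limma) was -0.38 without control mouse 2, -1.66 without control mouse 3 and -0.61 without Esr1(fl/fl) mouse 3.

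Ogn encodes osteoglycin, also called mimecan, which takes part in collagen fibril formation. Ogn stood at 1254 and 860.0 TPM in control mice 2 and 3, against 768, 528 and 348 TPM in Esr1(fl/fl) mice 1, 2 and 3. All 3 were below both controls, mouse 1 narrowly, since the lower control was 1.12 times its level. On the log2 scale the difference was -1.0 (SE 0.36, limma, unadjusted p 0.0272, adjusted p 0.326), and -1.28 without mouse 1 (adjusted p 0.0439).

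Podn encodes podocan, of a separate class, known to restrain smooth muscle cell growth. Podn stood at 50.4 and 37.3 TPM in control mice 2 and 3, against 72.6, 80.0 and 96.7 TPM in Esr1(fl/fl) mice 1, 2 and 3. All 3 were higher, each at least 1.44 times the higher control. Podn's log2 fold change was 0.91 (SE 0.21, limma, unadjusted p 0.0032, adjusted p 0.192), and 1.0 without mouse 1 (adjusted p 0.0333).

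**Figure D2:**
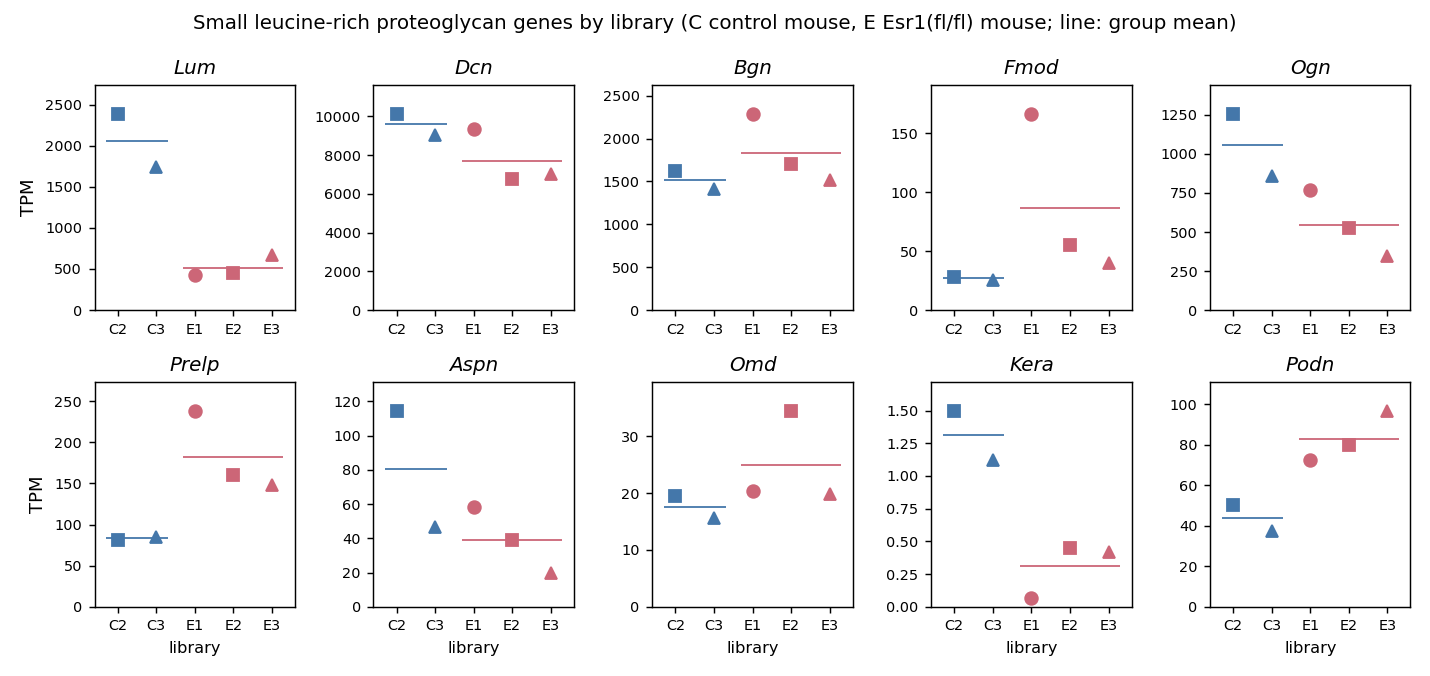
TPM of each member in each library on axes from 0, with C2 and C3 for control mice 2 and 3, E1 to E3 for Esr1(fl/fl) mice 1 to 3, and lines for group means. Lum is at 1740.0 TPM or more in the controls and at 671 TPM or less in the others, while Prelp and Podn are higher in every Esr1(fl/fl) library and E1 stands out for Fmod at 166 TPM.

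Levels can be ranked across genes because TPM is corrected for length. In the controls the order was Dcn, Lum, Bgn, Ogn, Prelp, Aspn, Podn, Fmod, Omd and Kera. Prelp and Aspn, and Aspn and Podn, were neighbours whose ranges over the controls overlapped. In Esr1(fl/fl) libraries the order was Dcn, Bgn, Ogn, Lum, Prelp, Fmod, Podn, Aspn, Omd and Kera. There the ranges of Ogn and Lum, Prelp and Fmod, Fmod and Podn, and Aspn and Omd overlapped. Lum thus stood second in controls, and Bgn stood second in Esr1(fl/fl) libraries with its lowest value, 1514 TPM, above the highest of Ogn, 768 TPM.

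Of the 1000000 TPM of a library, Rpph1 alone took 185822 and 213460 in control mice 2 and 3. It took 223129, 143307 and 131222 in Esr1(fl/fl) mice 1, 2 and 3, and percentages of all TPM include it. The 10 members together took 1.57% and 1.33% of all TPM in the controls and 1.34%, 0.981% and 0.988% in Esr1(fl/fl) mice 1, 2 and 3, so the sums overlapped. Within that sum the share of Lum was 15.2% and 13.1% in the controls and 3.19%, 4.57% and 6.79% in Esr1(fl/fl) mice 1, 2 and 3. The share of Bgn was 10.3% and 10.6% in the controls and 17.1%, 17.3% and 15.3% in the others. Dcn held 64.5% and 68.2% against 69.8%, 69.0% and 71.1%. Ogn held 8.01% and 6.47% against 5.74%, 5.38% and 3.52%. Shares are parts of a whole, so a lower share of an abundant member such as Lum goes with higher shares of others.

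**Figure D3:**
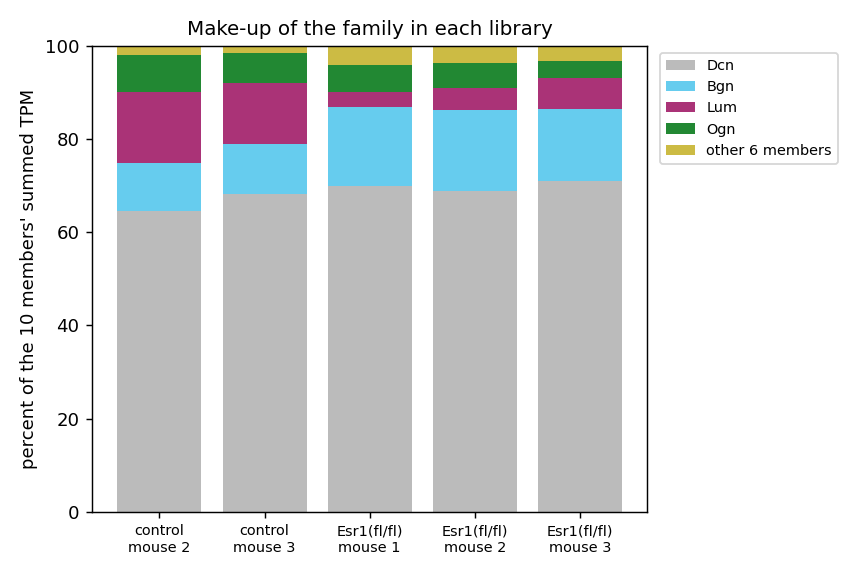
Percent of the summed TPM of the 10 members taken by Dcn, Bgn, Lum, Ogn and the other 6 members, 1 stacked bar per library. The Lum segment is 13.1% or more in both controls and 6.79% or less in each Esr1(fl/fl) library, and the Bgn segment goes the other way.

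Profiles over the 5 libraries were compared by the root mean square difference of centred log2(TPM + 1) values, where 0 means the same pattern. The values were not scaled by their spread, so members that vary little can lie close whatever their direction. Ogn and Aspn were each other's nearest member at 0.27, and so were Dcn and Bgn at 0.30 and Prelp and Podn at 0.39. Dcn (-0.33) and Bgn (0.26) had log2 fold changes of opposite sign, so their small distance does not mark a shared direction. Fmod was nearest to Prelp at 0.47. Lum was nearest to Kera at 0.62 and next to Ogn at 0.76. The direction of Kera follows in part from the filter, and Kera itself was nearest to Dcn at 0.40. The members farthest apart were Lum and Fmod at 1.87. These distances describe 5 libraries and were not tested.

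Many of these genes sit side by side in the genome. On chromosome 10 (GENCODE M21, GRCm38, the mm10 build named in the submitters' processing notes) lie Dcn (chr10:97479609-97518143), Lum (chr10:97565128-97572703), Kera (chr10:97606879-97613692) and then Epyc. Along this row the log2 fold changes were -0.33, -2.01, -0.83 and -0.064 on the log2(TPM + 1) scale. With a pseudocount of 0.1 Lum (-2.01) and Kera (-1.95) were close, so this order depends on the scale. On chromosome 1 lie Optc, Prelp (chr1:133910304-133921414) and Fmod (chr1:134037254-134048277), with start sites of Prelp and Fmod 115.8 kb apart. Both were higher, while Optc on one side (-0.35, adjusted p 0.59) and Btg2 on the other (-0.35, adjusted p 0.514) had values of the opposite sign in limma. On chromosome 13 lie Ecm2, Aspn (chr13:49544443-49567565), Omd (chr13:49582462-49592822) and Ogn (chr13:49608046-49624501). There the signs were mixed, with -0.43, -1.02, 0.44 and -1.0. All 4 lie within the span of Cenpp on the opposite strand, which was at 3.79 to 6.74 TPM and shares 7 exonic bases with Aspn and 0 with Omd and Ogn. Bgn lies on the X chromosome (chrX:73483602-73495933) and Podn on chromosome 4 (chr4:108014793-108031954, RefSeq).

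**Figure D4:**
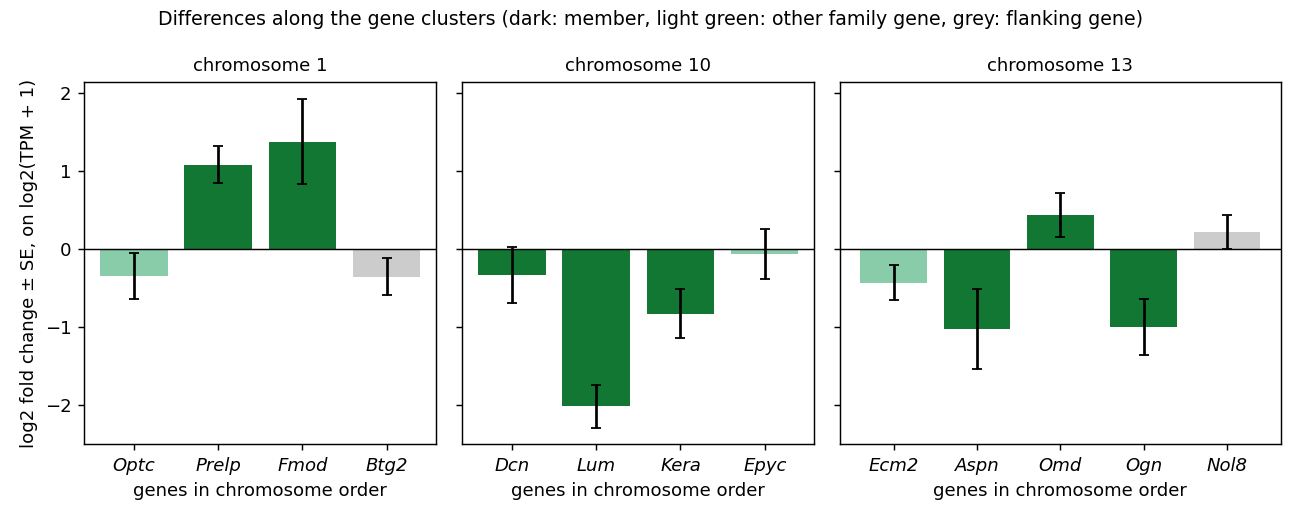
Log2 fold change with bars of 1 standard error for genes in chromosome order in the 3 clusters, dark green for members, light green for other family genes and grey for flanking genes. Prelp and Fmod are above 0 between neighbours below it, Lum is at -2.01 and Kera, whose low level this scale compresses, at -0.83, and Omd at 0.44 lies between Aspn and Ogn, which are near -1.

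Sequences of the 250 bases before the annotated start are shown for Prelp and Fmod, the neighbours that were both higher, for Podn, the other member above both controls at an unadjusted p under 0.05, and for Ogn, the abundant lower member with an entry. They were chosen after the values were seen. RefSeq promoter entries (GRCm38.p6) were found for 8 of the 10 members, not for Lum and Dcn. Capitals mark matches on either strand to AGGTCA (the core hexamer of an estrogen response element), TATAAA (the core promoter element of that name), GGGCGG (which Sp1 family factors bind) or CCAAT (which NF-Y binds). In the Ogn window 2 overlapping TATAAA matches on opposite strands form 1 run. The windows are chr1:133921402-133921651 (minus strand) for an inner start of Prelp and chr1:134037004-134037253 (plus strand) for Fmod. They are chr4:108031955-108032204 (minus strand) for the outer start of Podn and chr13:49607765-49608014 (plus strand) for Ogn. Each is written 5′ to 3′.
Prelp: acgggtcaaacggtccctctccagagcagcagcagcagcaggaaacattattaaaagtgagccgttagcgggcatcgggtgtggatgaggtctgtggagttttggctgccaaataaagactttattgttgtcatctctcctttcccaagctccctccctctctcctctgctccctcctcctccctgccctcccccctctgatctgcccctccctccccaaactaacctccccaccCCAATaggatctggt
Fmod: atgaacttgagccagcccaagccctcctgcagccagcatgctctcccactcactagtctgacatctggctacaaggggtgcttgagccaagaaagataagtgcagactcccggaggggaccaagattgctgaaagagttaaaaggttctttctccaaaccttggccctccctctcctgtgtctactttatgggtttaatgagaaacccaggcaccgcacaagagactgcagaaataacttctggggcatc
Podn: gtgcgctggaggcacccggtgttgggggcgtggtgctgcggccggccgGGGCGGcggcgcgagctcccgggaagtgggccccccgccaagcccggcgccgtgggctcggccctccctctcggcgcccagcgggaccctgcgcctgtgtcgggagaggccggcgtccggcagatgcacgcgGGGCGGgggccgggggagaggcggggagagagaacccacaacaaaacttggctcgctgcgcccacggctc
Ogn: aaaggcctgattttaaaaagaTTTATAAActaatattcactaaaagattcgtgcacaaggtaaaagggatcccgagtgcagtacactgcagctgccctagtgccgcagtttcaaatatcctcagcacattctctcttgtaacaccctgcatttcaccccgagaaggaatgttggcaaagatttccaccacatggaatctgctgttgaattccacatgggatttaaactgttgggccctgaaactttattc

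The Prelp window holds a CCAAT match at positions -15 to -11 from its inner start. The Fmod window holds none of the 4 motifs, and the Podn window holds 2 GGGCGG matches. The TATAAA matches of Ogn span positions -229 to -222 from the start. Base composition differed widely, with 55.6%, 51.2%, 78.0% and 42.0% G or C in Prelp, Fmod, Podn and Ogn, beside a median of 52.4% over all 32851 windows. The whole estrogen response element, AGGTCA followed after any 3 bases by TGACC, was in 0.0517% of all windows and in none of the 9 windows of these members. Its core AGGTCA was in 14.02% of all windows and, among members, in that of Omd and in the window of a second, inner start of Podn. TATAAA was in 12.4%, GGGCGG in 32.7% and CCAAT in 33.8% of all windows. Of other motifs searched, TGANTCA (AP-1, in 6.75% of all windows) and the palindromic SMAD element (0.167%) were in no window of these members. GGAATG (TEAD factors, 12.6%) was in that of Ogn, and the E-box CANNTG (66.2%) in those of Fmod, Podn, Aspn, Ogn and Bgn. A match is a string of letters and no evidence of binding, and these windows leave out more distant sequence. The Prelp and Kera windows precede inner starts, since the RefSeq spans of these genes begin upstream, at chr1:133930102 and chr10:97606962.

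The other family genes were mostly low, and 7 of 8 passed the filter. Chad encodes chondroadherin, a cartilage matrix protein that binds integrins. It was at 5.33 and 4.70 TPM in control mice 2 and 3, against 12.6, 32.4 and 35.7 TPM in Esr1(fl/fl) mice 1, 2 and 3. All 3 were above both controls, and the log2 fold change of 2.09 (standard error 0.43) had an unadjusted p of 0.0019 and an adjusted p of 0.173 in limma. Without mouse 1 it was 2.54 with an adjusted p of 0.0126. Ecm2 was the most abundant of the group, with 123 and 99.5 TPM in the controls, 67.9 to 104 TPM in the others and a log2 fold change of -0.43 (limma, adjusted p 0.431). Chadl was lower without overlap (-0.67, limma, adjusted p 0.406). Tsku (0.33), Optc (-0.35), Epyc (-0.064) and Podnl1 (0.029) overlapped between the groups, and Nyx was not tested.

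Genes that build, cut or bind these proteins were read from 11 lists of 117 genes, of which 116 were tested. None passed the adjusted threshold in limma with all 5 libraries at equal weight. Without Esr1(fl/fl) mouse 1, 12 passed as lower and 8 as higher, in a fit that called 2.59% and 5.31% of all tested genes. With library weights 9 passed as lower and 4 as higher, against 2.05% and 1.35%. Values below are those of all 5 libraries at equal weight unless said otherwise, and log2 fold changes are given with counts at an unadjusted p under 0.05, which 9.87% of all tested genes passed in the lower and 3.7% in the higher direction. Of 14 collagens that family members bind or that shape the same fibrils, 9 were lower and 2 higher, with a median of -0.73. The 9 include Col5a1 (-0.72), whose groups overlapped, and the low Col2a1 (-0.81) and Col11a2 (-0.75). Without control mouse 2, Col5a1 was at -0.25, Col1a2 at -0.45 (-0.69 with all libraries) and Col5a2 at -0.44 (-0.68 with all libraries). Col11a2 was at -0.79 in that fit. Col5a3, a chain of the collagen that starts fibrils, was at 64.0 and 36.5 TPM in control mice 2 and 3, against 9.51, 12.04 and 9.85 TPM in Esr1(fl/fl) mice 1, 2 and 3 (-2.11, limma, adjusted p 0.0858, and 0.0196 without mouse 1). Col6a3 was also lower (-1.84), but it was at -1.13 without control mouse 2, which had 674 TPM beside 249.8 TPM in control mouse 3. Col11a1 (1.32) and Col12a1 (1.05) were higher, and both passed without mouse 1 (limma, adjusted p 0.0245 and 0.0272), as did Col5a2 in the lower direction (0.0426). Against Col1a1, the main fibril chain and itself among the 9 lower collagens (-0.96), the ratio of Lum was 0.626 and 0.639 in the controls and 0.244, 0.323 and 0.356 in the others, whereas that of Dcn was 2.66 and 3.33 against 5.34, 4.87 and 3.73. Neither ratio overlapped between the groups, and they differed in opposite directions.

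Enzymes that crosslink collagen had a median of -0.61, and 4 of 8 were lower and 0 higher. They were led by Plod2, a lysyl hydroxylase (-1.46), with Loxl2 (-0.77) and Loxl1 (-0.74), which are lysyl oxidase relatives, and the fourth was Plod1 (-0.48). Control mouse 2 carried much of this: without it Plod2 was at -0.92 and Loxl2 at -0.29, and without control mouse 3 Loxl2 was at -1.24. Lox overlapped between the groups with all libraries (-0.76, limma, adjusted p 0.407). It passed without Esr1(fl/fl) mouse 1 (-1.14, limma, adjusted p 0.0178). Proteases known to cleave these proteoglycans had a median of -0.48, and 3 of 8 were lower and 0 higher. Mmp3, stromelysin, was at 42.1 and 37.7 TPM in control mice 2 and 3, against 4.04, 8.04 and 13.7 TPM in Esr1(fl/fl) mice 1, 2 and 3 (-2.22, limma, adjusted p 0.153, and 0.0205 without mouse 1). Adamts4, an aggrecanase (-0.87), and Mmp14, a membrane protease (-0.54), followed. Adamts4 (limma, adjusted p 0.0353) and Adamts1 (0.0256) also passed as lower without mouse 1. With all libraries Adamts1 was at -0.85 and its groups overlapped. Among 5 genes for removal of propeptides, which decorin and biglycan carry at first, 1 was higher, Tll1 (1.12), which passed without mouse 1 (limma, adjusted p 0.0454), and 1 lower, Tll2 (-0.77).

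Genes that build the sugar chains were read next. Of 16 genes for chondroitin and dermatan sulfate chains, 3 were lower (Csgalnact1, Chpf and the low Chst13, at -1.27) and 0 higher, with a median of -0.22. Csgalnact1, which starts the chondroitin chain, was at 10.6 and 8.38 TPM in control mice 2 and 3, against 4.95, 5.40 and 6.18 TPM in the others (-0.69, limma, adjusted p 0.293), and Chpf (-0.53) is a chain polymerising factor. Dsel (-0.50), an epimerase, lay below both controls at an unadjusted p of 0.0533 and is not among the 3. Of 7 linker genes 1 was higher, Fam20b (0.50), the xylose kinase of the linker. B3galt6 (0.47), B3gat3 (0.36) and Pxylp1 (0.17) were also above both controls, and Xylt2 (-0.23) was below both. Of 6 keratan sulfate genes 0 were lower or higher, and Chst2 (0.58) lay above both controls. Of 8 genes for sulfate and sugar supply 1 was higher, Papss1 (0.44). Papss2 (0.58, and 0.27 without mouse 1) and Ugdh (-0.32, and -0.20 without control mouse 3) did not overlap between the groups. Fam20b and Papss1 passed without mouse 1 (limma, adjusted p 0.0339 and 0.0430).

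Among partners outside the matrix, 2 of 7 tested growth factor genes were higher and 3 lower. Ccn2 (1.13) and Ccn4 (1.12), which encode matricellular proteins, were above both controls, and Bmp2 (-1.03), Tgfb2 (-0.74) and Tgfb1 (-0.39) were below. Ccn4 was at 0.72 without mouse 1, and Ccn2, Bmp2 and Tgfb2 passed in that fit (limma, adjusted p 0.0279, 0.0348 and 0.0245). Of 13 receptor genes 4 were lower and 1 higher, Igf1r (0.49). Itga2, a collagen-binding integrin chain (-1.29), and Cd14 (-1.35) and Tlr2 (-1.01), which sense free biglycan on myeloid cells, lay below both controls, as did P2rx7 (-0.52). Cd14 was at -0.85 without control mouse 3. Itga2, Tlr2 and Igf1r passed without mouse 1 (limma, adjusted p 0.0325, 0.0460 and 0.0406). Of 24 other proteoglycans 4 were lower and 0 higher. These were Srgn (-1.31), the proteoglycan of blood cell granules, Prg4 (-1.21), a lubricant, Hspg2 (-0.86, and -0.52 without control mouse 2), perlecan of basement membranes, and the low Bcan (-0.94). Without mouse 1 Srgn and Prg4 passed as lower and Gpc4 as higher (limma, adjusted p 0.0396, 0.0140 and 0.0319). With all libraries Gpc4 was at 0.42 and its groups overlapped, with Esr1(fl/fl) mouse 1 below both controls. The adjusted p of the 28 genes named by rule in these lists ran from 0.0858 for Col5a3 to 0.458 for Papss2 (limma). Without Esr1(fl/fl) mouse 1 it ran from 0.0140 for Prg4 to 0.372 for Papss2, and 12 of the 28 passed. Col12a1, Col5a2, Plod1, Lox, Adamts1, Tll1, Tll2, Chst13, Tgfb1, Tgfb2, Igf1r, P2rx7, Bcan and Gpc4 were named after their values were seen, to account for these counts. So were Col1a2, Col2a1, Col5a1, Col11a2, Pxylp1 and Xylt2.

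**Figure D5:**
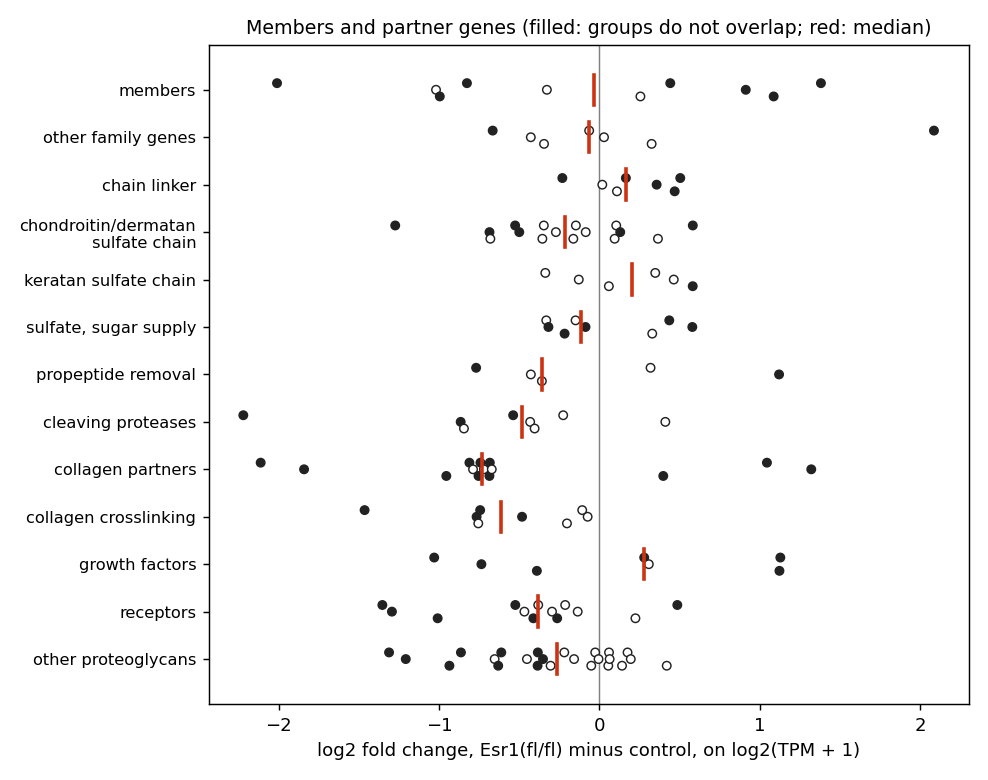
Log2 fold changes of the tested members, other family genes and 11 partner lists, 1 point per gene, filled where the groups do not overlap, with a red bar at each list's median. Members spread from -2.01 to 1.38 around a median near 0, whereas the medians of collagen partners (-0.73) and crosslinking genes (-0.61) lie to the left.

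Markers of cell types that the sort could hold differed between the groups in part. The 8 stromal markers summed to 2642 to 3274 TPM in controls and 2497 to 2896 TPM in Esr1(fl/fl) libraries, with 2 above and 1 below both controls in all 3. The 8 immune markers summed to 1919 to 2497 TPM in controls and 673 to 1473 TPM in the others, 6 of them below both controls in all 3. The 10 epithelial markers summed to 3042 and 3308 TPM in the controls, 2125 TPM in Esr1(fl/fl) mouse 1, and 11988 and 13147 TPM in mice 2 and 3, most of it Ovgp1, the oviduct's secreted glycoprotein. Of the 5 mesothelial markers, Msln (-1.47), Lrrn4 (-1.26) and Upk3b (-0.95) lay below both controls in all 3 and Wt1 (0.50) above. These 4 summed to 485 to 567 TPM in controls and 306 to 422 TPM in the others, without overlap. The fifth, Krt19, is also in the epithelial list, and with it the sums overlapped, at 712 to 835 and 441 to 967 TPM. The 5 ciliated markers summed to 314 to 332 and 280 to 452 TPM, the 5 endothelial to 171 to 201 and 135 to 210 TPM, and the 5 smooth muscle markers to 344 to 498 and 394 to 452 TPM. No marker was at 0 in any library. Without Esr1(fl/fl) mouse 1, 6 epithelial markers passed as higher and 3 immune markers (Lyz2, Csf1r, Adgre1) as lower in limma, as did Msln, Upk3b, Lrrn4, Dpt of the stromal and Des of the smooth muscle list, with Wt1 higher. No epithelial or smooth muscle marker separated the groups with all 5 libraries. Epithelial sums were 2125, 11988 and 13147 TPM in Esr1(fl/fl) mice 1, 2 and 3. In the same order Lum was at 426, 448 and 671 TPM and Podn at 72.6, 80.0 and 96.7 TPM. Ogn was at 768, 528 and 348 TPM and Prelp at 238, 159.8 and 149 TPM. Lum and Podn rose and Ogn and Prelp fell in the order of rising epithelial sums. Immune sums fell in that order, at 1473, 962 and 673 TPM. The part of these cell types in the differences of the members, and of partner genes such as Cd14, Tlr2 and Srgn, was not tested.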

How the data were processed

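Expression is in TPM per gene, deposited by the authors as 1 table with a column for each of 5 libraries, each summing to 1000000. The table's name points to STAR, and the submitters' processing notes name mm10. The counter, annotation and strand setting are not given in the sources used here. Per the labels, a low-input SMARTer kit was used on RNA of sorted cells.

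The log2(TPM + 1) values were tested with limma 3.58.1 under R 4.3.3 (eBayes with trend, genotype as the sole term, two-sided), over 19292 genes with at least 1 TPM in at least 2 libraries, with Benjamini-Hochberg adjustment and a threshold of 0.05. This scale understates changes of low genes. The fit was tested on simulated data. Read numbers are estimates from the steps of low values in single-exon genes (6.48 to 13.5 reads per TPM and kb).

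Members and gene lists were chosen with earlier results of these data known. Partner genes were named by rule: those past the threshold, else up to 3 per list with a mean of at least 5 TPM, groups that do not overlap and the largest change. Alternatives changed the pseudocount, filter, scaling, variance model and weights, added a block for the mouse number, or left out each library.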

Additional observations from a re-analysis of the deposited data

How the results depend on the processing

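The counts of all genes called, 2 higher and 3 lower, moved with most settings. Both were 0 with a pseudocount of 0.1 and when a mean of at least 5 TPM was asked for. The higher count was 1 unfiltered and 0 with quantile normalization, median-of-ratios scaling and eBayes without trend, and the lower count was 5 without Rpph1 and Rn45s. Library weights gave 260 higher and 396 lower. Leaving out 1 library at a time gave 0 to 1024 higher and 0 to 499 lower. The cause was not tested.

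The members called, 0 in each direction with all 5 libraries, were 2 higher and 1 lower with library weights (Lum, Prelp, Podn), where 3.4% of all tested genes were called. Of the fits that left out 1 Esr1(fl/fl) mouse, only that without mouse 1 called members, 2 higher (Prelp, Podn) and 2 lower (Lum, Ogn). In that fit 7.89% of all tested genes were called. Members higher at an unadjusted p under 0.05 numbered 2 to 4 over the alternatives, while the share of all tested genes was 3.7% with all libraries at equal weight, 17.6% without Esr1(fl/fl) mouse 1 and 14.7% with library weights. The lower count, 3 with Kera, was 2 or 3 over the fits without 1 Esr1(fl/fl) mouse and 4 with library weights. The share of all tested genes that were lower was 9.87% with all libraries at equal weight. It was 11.5% without Esr1(fl/fl) mouse 1 and 13.4% with library weights. In fits without a control, the remaining control is assumed to vary like the other group. No member changed sign in any of the 139 alternative values, of which 126 did not pass the adjusted threshold and 13 did. The mean filter of 5 TPM gave no value for Kera.

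With the mouse number as a replicate block, which rests on mice 2 and 3 alone, 1165 genes were higher and 693 lower, and 3 members were called higher (Prelp, Podn, Fmod) and 3 lower (Lum, Ogn, Aspn). In that fit 9.63% of all tested genes were called. The correlation of same-numbered libraries around their group means was -0.060 (mouse 2) and -0.072 (mouse 3). With 2 controls the deviations of one mirror those of the other, so these values cannot show whether equal numbers mark a shared litter or day. The labels do not say so. Signs turned for Esr1 (0.57 under the block and without Esr1(fl/fl) mouse 1, 0.15 with library weights), Pdgfra (-0.074 in the first 2 of these, -0.0037 without control mouse 3), Podnl1 (-0.49 under the block and without mouse 1, -0.061 with a pseudocount of 0.1, -0.016 without Rpph1 and Rn45s, -0.18 with library weights and -0.18 without control mouse 2) and Epyc (0.46 with quantile normalization, 0.081 without control mouse 2, 0.10 without Esr1(fl/fl) mouse 2). Leaving out 1 library at a time gave -0.68 to 0.57 for Esr1, -0.074 to 0.35 for Pdgfra, -0.49 to 0.45 for Podnl1 and -0.21 to 0.10 for Epyc. Depth limits Kera, with about 0.95 reads in Esr1(fl/fl) mouse 1.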
